A study of Mus musculus with 10 samples.

Results

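The genes of mTOR signalling followed here were the kinase gene Mtor, its partner genes Rptor, Rictor and Akt1s1, the tuberous sclerosis genes Tsc1 and Tsc2, the sestrin genes Sesn1, Sesn2 and Sesn3, and Ddit4. These 10 genes were chosen by name as components of the mTOR complexes, of the Tsc complex and of the group of stress-induced inhibitors of mTORC1. Each of the 10 symbols matched 1 row among the 20206 genes of the table, and all 10 were among the 14354 genes with a mean value of at least 10 that were tested. Rictor belongs to mTORC2, so the group is wider than mTORC1.

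RNA sequencing covered 10 mouse embryonic stem cell (ESC) lines, which are cultures grown out of the inner cells of blastocysts. All were wild-type C57Bl/6 lines labelled as male, from naturally mated females aged 7 to 9 weeks. The 5 LPD lines (1, 4, 6, 20 and 40) came from mothers fed a low protein diet with 9% casein, and the 5 NPD lines (8, 15, 21, 36 and 51) from mothers fed a normal protein diet of equal calories with 18% casein, in both cases until embryonic day 3.5. The diets were thus fed to the mothers before derivation. The lines were derived on feeder cells and cultured without fibroblasts for RNA extraction, and each line was counted as 1 replicate.

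mTORC1 is a kinase complex on the lysosome surface that couples growth to amino acids, growth factors and energy. The Rag GTPases recruit it when amino acids are plentiful, and the small GTPase Rheb switches it on unless the Tsc complex holds Rheb inactive. Sestrins restrain the Rag branch, with the sestrin 2 protein acting as a leucine sensor, and Redd1, the product of Ddit4, acts through the Tsc complex. Sesn2 and Ddit4 are known targets of the amino acid response factor Atf4, Sesn1 of p53, Sesn3 of Foxo factors, and Ddit4 also of the hypoxia factor Hif1a.

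To show the DNA just before the stress-responsive members, the 250 bases before the RefSeq start site were taken for the sestrins and Ddit4 (GRCm38.p6, written 5′ to 3′ on the gene's strand). Capitals mark a match, on either strand, to the Atf4 composite element TGATGNAA, the hypoxia core ACGTG, the Foxo motif TGTTTAC or the E-box CACGTG, which contains the hypoxia core. No p53 motif was searched for, and the hypoxia core was searched for only in the form ACGTG. Sesn1 has a pair of promoters in RefSeq, and the upstream one is shown. The windows lie at chr10:41810324-41810573 on the plus strand for Sesn1, chr4:132510457-132510706 on the minus strand for Sesn2, chr9:14276051-14276300 on the plus strand for Sesn3 and chr10:59951771-59952020 on the minus strand for Ddit4.
Sesn1: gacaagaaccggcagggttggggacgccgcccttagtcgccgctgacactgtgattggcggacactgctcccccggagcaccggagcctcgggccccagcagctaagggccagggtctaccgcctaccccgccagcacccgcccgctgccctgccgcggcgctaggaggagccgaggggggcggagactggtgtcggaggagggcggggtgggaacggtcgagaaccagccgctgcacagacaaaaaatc
Sesn2: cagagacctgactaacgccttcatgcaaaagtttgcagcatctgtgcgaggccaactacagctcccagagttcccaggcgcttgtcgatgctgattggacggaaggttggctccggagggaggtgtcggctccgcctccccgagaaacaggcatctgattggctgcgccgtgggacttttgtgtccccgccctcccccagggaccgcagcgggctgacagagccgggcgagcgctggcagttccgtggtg
Sesn3: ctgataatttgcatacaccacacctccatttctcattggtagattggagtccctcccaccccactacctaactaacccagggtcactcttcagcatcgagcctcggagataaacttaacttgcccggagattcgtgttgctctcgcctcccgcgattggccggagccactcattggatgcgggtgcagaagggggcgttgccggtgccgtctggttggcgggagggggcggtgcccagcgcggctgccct
Ddit4: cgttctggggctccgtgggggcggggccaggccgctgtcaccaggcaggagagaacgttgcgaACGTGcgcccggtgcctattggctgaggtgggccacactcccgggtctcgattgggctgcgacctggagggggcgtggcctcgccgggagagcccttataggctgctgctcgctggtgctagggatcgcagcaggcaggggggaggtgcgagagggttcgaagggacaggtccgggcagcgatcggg
The Ddit4 window holds 1 ACGTG, from base 187 to base 183 before the start. The other 3 windows hold none of the 4 motifs. Over the 11 promoters of the 10 genes, ACGTG occurred in 2, those of Ddit4 and Rptor, and the other 3 motifs in 0. Among all 32851 RefSeq promoters cut the same way, 16.6% held ACGTG, 6.02% CACGTG, 3.45% TGATGNAA and 3.17% TGTTTAC. These matches describe letters and not binding.

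The lines differed in depth, and 2 of them had a low value of a Y-linked gene. Depth, estimated as the sum of values over what 1 read is worth in that line, was 20317844 to 23175114 reads in the NPD lines, 21816933 and 24240385 in LPD lines 1 and 20, and 5856517, 12311616 and 11236520 in LPD lines 4, 6 and 40. The Y-linked gene Ddx3y had values of 1110 to 1493 in 8 lines. It was at 174 in LPD line 4 and 7.70 in NPD line 15, although both were labelled male. No other Y-linked gene was examined, and the reason was not tested. The 10 pluripotency markers, Pou5f1, Nanog and Sox2 among them, were present in every line, with a summed value of 97174 to 132740. Fibroblast feeder markers summed to 309 to 3358 in the LPD lines and 395 to 5687 in the NPD lines, were highest in NPD line 15 and LPD line 6, and had a median log2 difference of -0.93 over the 7 of 10 tested. Dcn, Postn and Twist2 were below the filter, Lum was at 1.39 or less in the LPD lines, and the part of these cells in the results below was not tested. In such bulk samples fewer cells of a type and less RNA per cell cannot be told apart.

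Between diets, no gene of the table passed an adjusted p of 0.1 in limma with Benjamini-Hochberg adjustment (0 of 14354, 0%), and 721 genes (5.02%) had an unadjusted p under 0.05. Of the 10 genes, 1 had an unadjusted p under 0.05, which was Sesn2. In the LPD direction the background was 408 genes (2.84%). None of the 10 had groups without overlap, against 146 of all genes tested (1.02%). Their median was -0.03 on the log2 scale, 4 being higher and 6 lower in LPD, while all genes tested had a median of 0.00 with 50.5% higher. A count of 1 in 10 stands near this background, and it was 0 without LPD line 4 and NPD line 15.

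**Figure D1:**
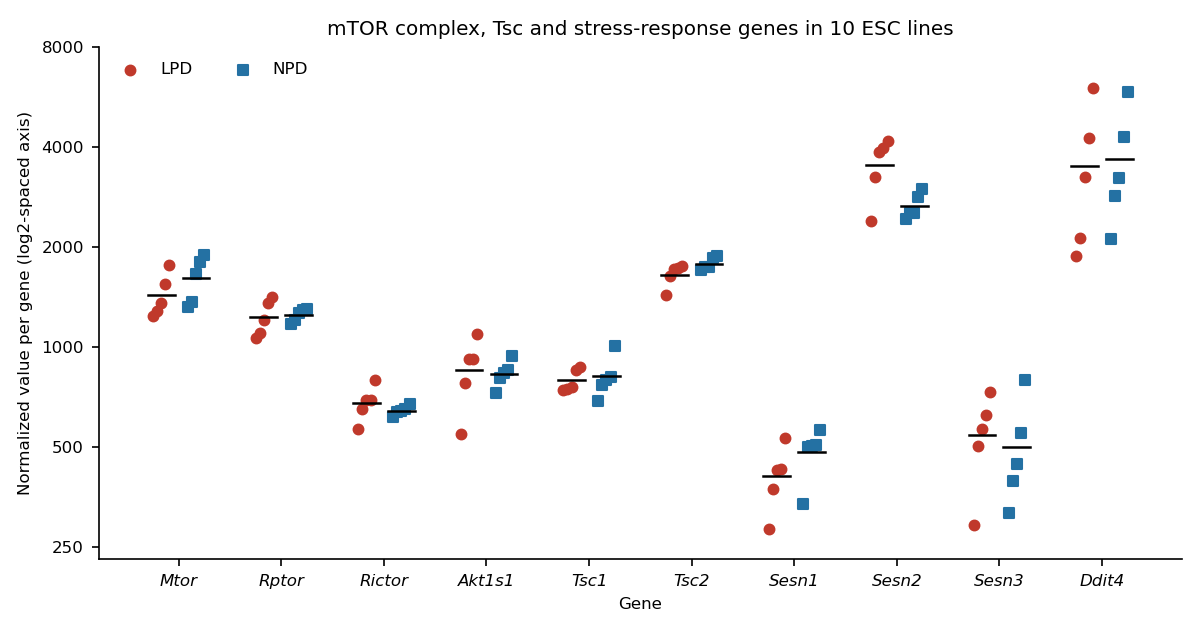
Normalized value per gene (log2-spaced axis) of the 10 genes in each of the 5 LPD lines (red circles) and 5 NPD lines (blue squares), with the mean of each diet as a black bar. For Sesn2, 4 LPD lines lie above all NPD lines and the fifth lies below them, while the diets overlap widely in the other 9 genes.

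Mtor (chromosome 4, 148448611 to 148557683, GRCm38) encodes the kinase shared by both complexes. Its normalized value, an estimated read number per gene scaled between lines, was 1284, 1242, 1547, 1765 and 1358 in LPD lines 1, 4, 6, 20 and 40, and 1654, 1371, 1893, 1322 and 1803 in NPD lines 8, 15, 21, 36 and 51. The lowest pair of lines were LPD lines and the highest pair NPD lines, with the remainder interleaved. LPD lines averaged 1439 ± 217 (SD, n = 5) and NPD lines 1609 ± 255 (SD, n = 5). On the log2 scale of value plus 1, used for every fold change, the difference was -0.16 with a 95% interval from -0.44 to 0.12 (limma, adjusted p = 0.994).

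Rptor (chromosome 11, 119602905 to 119899576) encodes Raptor, the scaffold that brings substrates to mTORC1. In the same order of lines, its normalized value was 1104, 1359, 1205, 1410 and 1065 in LPD and 1300, 1176, 1209, 1269 and 1290 in NPD. The NPD lines all lay inside the range of the LPD lines. The log2 fold change was -0.03, with an interval from -0.24 to 0.17.

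Rictor (chromosome 15, 6708379 to 6800401) encodes the defining subunit of mTORC2. Values were 652, 795, 693, 695 and 568 in LPD and 673, 635, 643, 649 and 617 in NPD. Again the NPD lines lay within the LPD range, and they were closely grouped, with an SD of 20.4 against 82.0 in LPD. Between diets the log2 difference was 0.07 (95% interval -0.14 to 0.29).

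Akt1s1 (chromosome 7, 44848991 to 44855421) encodes Pras40, an inhibitory subunit of mTORC1 that Akt phosphorylates. LPD lines had 918, 782, 1096, 922 and 548, and NPD lines 806, 728, 833, 939 and 850. LPD line 40 was the lowest and LPD line 6 the highest of the 10, so both extremes belonged to the same diet. On the log2 scale the diets differed by 0.01 (95% interval -0.34 to 0.35).

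Tsc1 (chromosome 2, 28641228 to 28691167) encodes hamartin, which stabilizes the Tsc complex. It had 870, 851, 746, 761 and 741 in LPD and 1011, 795, 813, 768 and 690 in NPD. NPD lines were at both ends of the range. The log2 fold change was -0.03 (95% interval -0.27 to 0.21).

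Tsc2 (chromosome 17, 24595816 to 24632630) encodes tuberin, the part of the complex that acts on Rheb. Its value was 1437, 1724, 1637, 1713 and 1754 in LPD against 1741, 1737, 1701, 1874 and 1856 in NPD. LPD lines 1 and 6 lay below and NPD lines 36 and 51 above all lines of the other diet. The difference was -0.11 on the log2 scale (95% interval -0.28 to 0.06, limma adjusted p = 0.994), and the exact permutation p over all assignments of 5 and 5 lines was 0.0873. Tsc2 varied least of the 10 genes, with an SD between lines of 0.09 on the log2 scale, and 97.4% of all genes tested varied more.

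Sesn2 (chromosome 4, 132492032 to 132510501) encodes the leucine-binding sestrin. Its normalized value was 3857, 4171, 3245, 3963 and 2391 in LPD lines 1, 4, 6, 20 and 40, and 2995, 2437, 2540, 2825 and 2529 in NPD lines 8, 15, 21, 36 and 51. Thus 4 LPD lines stood above all 5 NPD lines, and LPD line 40 was the lowest of the 10. LPD lines averaged 3525 ± 722 (SD, n = 5) and NPD lines 2665 ± 235 (SD, n = 5), a ratio of 1.32. The log2 fold change of 0.38 (standard error 0.14, 95% interval 0.08 to 0.68) had an unadjusted p of 0.0172 and an adjusted p of 0.860 in limma with Benjamini-Hochberg adjustment. The exact permutation test gave p = 0.0556 (two-sided), where 0.00794 is the smallest value that 5 against 5 lines allow.

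Of the lines left out in turn, LPD line 40 moved the Sesn2 comparison most. Leaving it out gave 0.51 on the log2 scale, with an unadjusted p of 2.2e-04 and an adjusted p of 0.0943 (limma), in a fit in which 40 genes of the table passed 0.1. The line also had the highest Ddit4 value, the lowest Rptor, Rictor, Akt1s1 and Sesn3 values and a lower depth, and the part of depth was not tested beyond the fits given here. Without LPD line 4 and NPD line 15, the lines with low Ddx3y, the log2 fold change was 0.28 and its unadjusted p 0.0945. Without LPD lines 4, 6 and 40, the lines of lower depth, it was 0.56 with an unadjusted p of 7.0e-04 and an adjusted p of 0.401 in limma. With depth as a covariate it was 0.41 with an unadjusted p of 0.0404 and an adjusted p of 0.999 in limma.

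Sesn1 (chromosome 10, 41809935 to 41908424) encodes a p53-induced sestrin. Values were 431, 426, 284, 373 and 533 in LPD and 504, 338, 499, 564 and 508 in NPD. In NPD, 4 lines were at 499 or above, and in LPD only line 40 was. LPD lines averaged 410 ± 91.0 (SD, n = 5) and NPD lines 483 ± 85.0 (SD, n = 5). The log2 fold change was -0.25 (95% interval -0.63 to 0.14, limma adjusted p = 0.994). NPD line 15 lay apart from the other NPD lines, and the comparison without this line gave -0.37, with an unadjusted p of 0.0431 and an adjusted p of 0.9996 in limma. Without LPD line 6, the lowest of the lines, it gave -0.12, with an unadjusted p of 0.464 in limma.

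Sesn3 (chromosome 9, 14275067 to 14333101) encodes a sestrin that Foxo factors induce. It had 625, 732, 567, 503 and 291 in LPD and 549, 796, 316, 444 and 395 in NPD. The lowest line was LPD line 40 and the highest NPD line 15, with lines of both diets between them. Between diets the difference was 0.13 on the log2 scale, with a wide 95% interval from -0.45 to 0.71.

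The 3 sestrin genes had log2 fold changes of -0.25, 0.38 and 0.13 for Sesn1, Sesn2 and Sesn3, so their ratios within a line were compared as well. Within a line, the log2 ratio of Sesn2 to Sesn1 averaged 3.10 ± 0.54 (SD, n = 5) over LPD lines and 2.48 ± 0.23 (SD, n = 5) over NPD lines. Of the LPD lines, 4 were above all NPD lines and line 40 below them, and the difference of 0.63 (standard error 0.26) had an exact permutation p of 0.0556, or 0.167 after Benjamini-Hochberg adjustment over the 3 ratios compared. Ratios of Sesn2 to Sesn3 and to Ddit4 differed by 0.25 and 0.49 (exact permutation p = 0.452 and 0.349). These ratios were chosen after the values had been seen.

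Ddit4 (chromosome 10, 59949669 to 59951834) encodes Redd1, the hypoxia- and stress-induced activator of the Tsc complex. Its normalized value was 4255, 3246, 2131, 1885 and 6023 in LPD and 3233, 4284, 5862, 2119 and 2858 in NPD. The highest values were reached in 1 line of each diet, and low values likewise occurred in both. LPD lines averaged 3508 ± 1694 (SD, n = 5) and NPD lines 3671 ± 1452 (SD, n = 5), with a log2 fold change of -0.11 with a wide interval from -0.81 to 0.59 (exact permutation p = 0.817). Its SD between lines of the same diet, 0.63 on the log2 scale, was the largest of the 10 genes. Of all genes with a mean of at least 500, 1.17% had a larger one, against 2.51% for Sesn3.

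**Figure D2:**
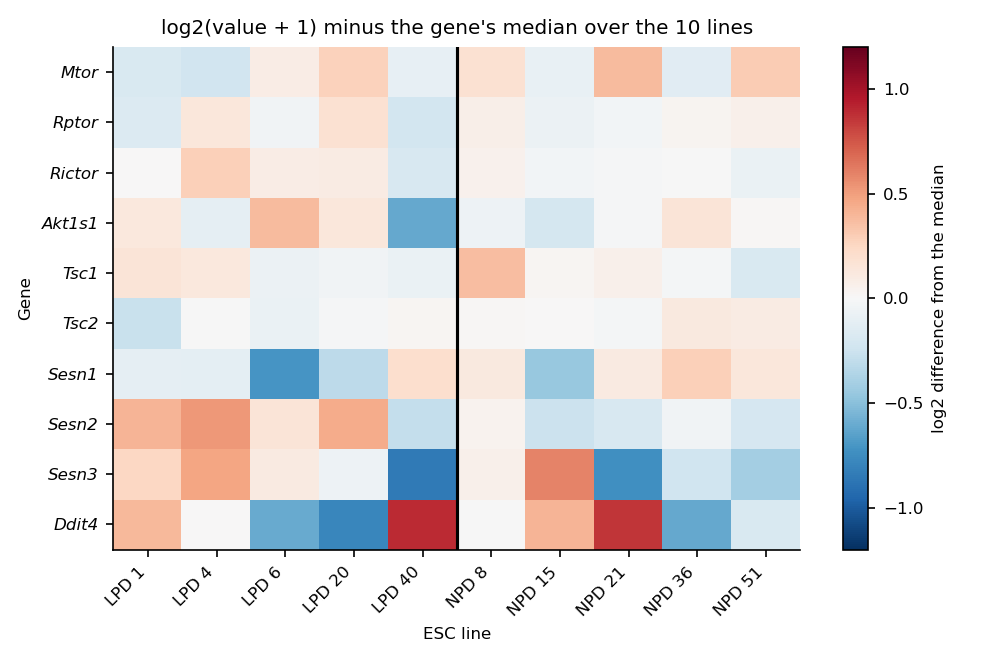
Colour map of log2(value + 1) minus the median of the 10 lines for each of the 10 genes (rows) in each ESC line (columns, LPD left of the black line and NPD right of it). The deepest colours are in Ddit4, Sesn3 and Sesn1, where single lines of both diets stand apart, and LPD line 40 is low for Sesn2, Sesn3 and Akt1s1 and high for Ddit4.

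Levels of the genes relative to each other were compared per kilobase of the longest coding transcript. Ddit4 had the highest mean level, 2045 per kb (1074 to 3432 over the lines), followed by Sesn2 at 891 per kb (688 to 1200), and these neighbours overlapped between lines. Sesn2 was in every line above the highest level per kb of Akt1s1, whose mean was 465 per kb. Then came Tsc2 at 274 per kb, whose range met neither that of Akt1s1 above it nor that of Rptor below it. Rptor at 188, Mtor at 178, Sesn1 at 117 and Tsc1 at 104 per kb each overlapped with the next. Rictor at 71.1 per kb lay below Tsc1 without overlap, and Sesn3 at 57.2 per kb overlapped with Rictor. On this per-length scale the Sesn2 mean was the highest of the 3 sestrins, with its lowest line at 688 per kb above the highest Sesn1 line at 148 and the highest Sesn3 line at 87.2.

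Differences between lines also linked some of the genes to each other. As a description over 10 lines, whose genes share 1 library and 1 scaling factor per line, Sesn2 went with Rictor (r = 0.80, and 0.84 for deviations from the mean of each diet). Rictor went with Rptor (r = 0.67) and with Sesn3 (r = 0.64). Ddit4 ran opposite to Akt1s1 (r = -0.71) and Rptor (r = -0.69), and Sesn3 opposite to Sesn1 (r = -0.61). Sesn2 and Ddit4, although both are Atf4 targets, had r = -0.46.

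To describe which known regulators the stress-responsive genes went with, Sesn1, Sesn2, Sesn3 and Ddit4 were set against 5 factors and 3 target lists that hold none of the 10 genes, giving 32 relations over 10 lines, with permutation p-values. Atf4, the transcription factor that is translated when amino acids run short, had an mRNA value of 7444, 8006, 7058, 8594 and 6125 in LPD and 6376, 4678, 5681, 4841 and 5178 in NPD. LPD line 40 alone fell within the NPD range, while for Sesn2 it lay just below that range. Its log2 fold change was 0.48 (standard error 0.11, unadjusted p = 9.1e-04, limma adjusted p = 0.435).

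Sesn2 went with Atf4 mRNA, with r = 0.87 (permutation p = 0.0020, adjusted 0.0627) and rho = 0.83 (permutation p = 0.0047, adjusted 0.127). The value of r was 0.81 without the 2 lines farthest from the median of Atf4, 0.77 for deviations within diets and 0.82 without LPD line 4 and NPD line 15. Of the 20 other Atf4 targets, all were higher in LPD, against 50.5% of all genes tested, and 9 were higher with an unadjusted p under 0.05, against 2.84% of all genes. Their median log2 fold change was 0.32. The count was 20 of 20 with a median of 0.31 without LPD line 4 and NPD line 15, 19 of 20 with a median of 0.36 without LPD line 40, and 18 of 20 with a median of 0.36 without LPD lines 4, 6 and 40. The 9 genes were Asns, Trib3, Chac1, Psat1, Phgdh, Mthfd2, Slc3a2, Atf3 and Vldlr, of which Asns makes asparagine, Psat1 and Phgdh make serine and Slc3a2 is a subunit of amino acid transporters. With the mean log2 value of these 20 targets Sesn2 had r = 0.81 (permutation p = 0.0065, adjusted 0.0862) and rho = 0.75 (permutation p = 0.0171, adjusted 0.127), and r was 0.86 without the 2 farthest lines and 0.65 within diets. For Sesn2 over LPD and NPD lines alone, r was 0.93 and 0.58 with Atf4 mRNA, and 0.80 and 0.51 with these targets. The permutations moved lines between diets, so the p-values of these relations also take in the difference between diets. The higher Atf4 targets in LPD were known from an earlier analysis of these lines and are no separate evidence.

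Ddit4, the other Atf4 target among the 10 genes, had r = -0.25 with Atf4 mRNA (permutation p = 0.483, adjusted 0.644) and -0.27 with the mean of the Atf4 targets (permutation p = 0.437, adjusted 0.623). These values of r were -0.71 and -0.86 over the LPD lines alone, and 0.24 and 0.38 over the NPD lines alone. With 12 hypoxia targets, among them Egln3, Bnip3, Ankrd37 and Vegfa, r was 0.75 (permutation p = 0.0135, adjusted 0.0862) and rho 0.66 (permutation p = 0.0437, adjusted 0.200). This r was 0.78 without the 2 farthest lines and 0.75 both within diets and without LPD line 4 and NPD line 15. Over the LPD lines alone it was 0.99, and over the NPD lines alone 0.44. LPD line 40 and NPD line 21, the lines with the most Ddit4, also had the highest mean log2 value of the hypoxia targets, 9.79 and 9.94, and LPD line 20, with the least Ddit4, had the lowest, 8.32. The 12 targets had a median log2 fold change of -0.19 between diets, 9 being lower and 3 higher in LPD and none with an unadjusted p under 0.05 in limma. Without LPD line 40, 11 were lower and 1 higher, with a median of -0.22, and without LPD lines 4, 6 and 40 the median was -0.32.

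Hif1a mRNA ran the other way from Ddit4, with r = -0.78 (permutation p = 0.0092, adjusted 0.0862) and rho = -0.79 (permutation p = 0.0090, adjusted 0.127), and r was -0.58 without the 2 farthest lines and -0.78 within diets. For Hif1a itself, LPD lines averaged 1963 ± 336 (SD, n = 5) and NPD lines 1914 ± 151 (SD, n = 5). As Hif1a is known to be controlled mainly through protein stability, its mRNA is no measure of its activity. For Atf4, Trp53, Foxo1 and Foxo3 the activity of the protein was not measured either, so relations with their mRNA do not show it.

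**Figure D3:**
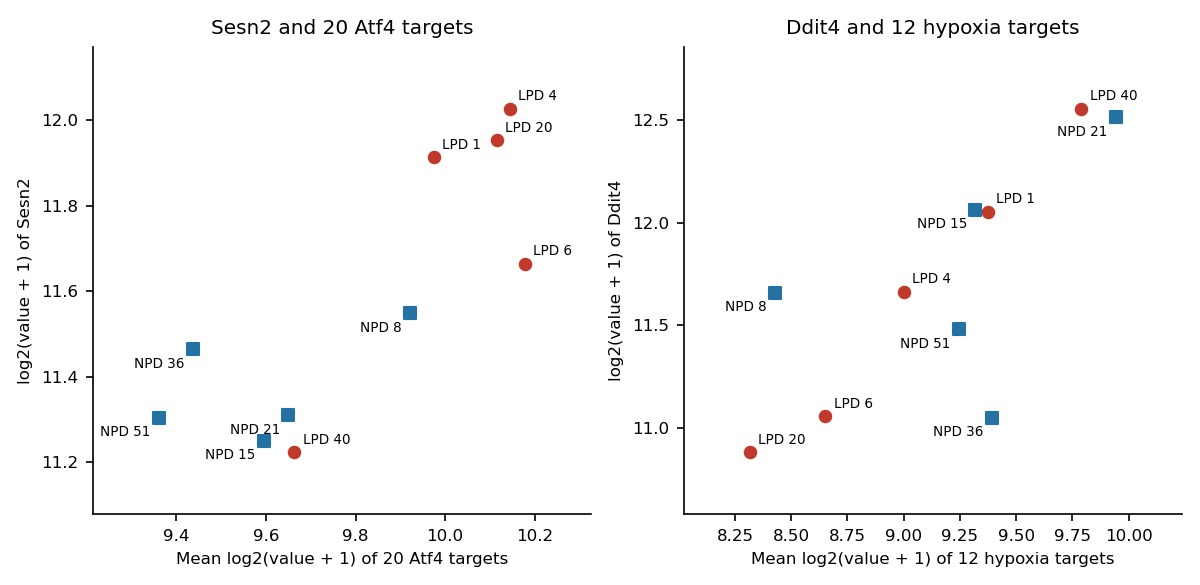
Left, log2(value + 1) of Sesn2 against the mean log2(value + 1) of 20 Atf4 targets, and right, log2(value + 1) of Ddit4 against the mean of 12 hypoxia targets, with 1 point for each LPD line (red circles) and NPD line (blue squares). LPD line 40 lies with the NPD lines in the left panel, and lines of both diets are mixed along the right one.

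Sesn3 had r = 0.75 with the mean of 12 p53 targets (permutation p = 0.0132, adjusted 0.0862) and rho = 0.76 (permutation p = 0.0147, adjusted 0.127). That value of r was 0.63 without the 2 farthest lines, 0.75 within diets and 0.58 without LPD line 4 and NPD line 15. With the mRNA of Trp53, which encodes p53, Sesn3 ran the other way, with r = -0.63 (permutation p = 0.0533, adjusted 0.244) and rho = -0.66 (permutation p = 0.0436, adjusted 0.200), and r was -0.79 without the 2 farthest lines and -0.62 within diets. With Foxo1 mRNA, Sesn3 had r = 0.70 (permutation p = 0.0234, adjusted 0.125) and rho = 0.73 (permutation p = 0.0198, adjusted 0.127), which became r = 0.82 without the 2 farthest lines and 0.76 within diets. Sesn1, a known p53 target, had r = -0.37 with the p53 targets (permutation p = 0.295, adjusted 0.603) and -0.60 with the Atf4 targets (permutation p = 0.0670, adjusted 0.268). With the p53 targets it had 0.29 over LPD lines alone, -0.88 over NPD lines alone and -0.17 without LPD line 4 and NPD line 15. Trp53 and Foxo3 mRNA had log2 fold changes between diets of -0.08 and -0.09, and Foxo1 of -0.12, each with a 95% interval that spans 0. The 12 p53 targets had a median of 0.05, with 9 higher, 3 lower and none with an unadjusted p under 0.05 in limma. This median was 0.10 without LPD line 40, 0.10 without LPD line 4 and NPD line 15, and 0.16 without LPD lines 4, 6 and 40.

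Over the wider pathway, 67 of 68 other listed genes were in the table and all 67 were tested. Of these, 33 were higher and 34 lower in LPD, the median log2 fold change was -0.01, and 1 in each direction had an unadjusted p under 0.05, a share below the 5.02% of all genes. The Rag GTPases, Ragulator and folliculin group had 9 of 12 higher, the mTORC1 substrates 10 of 13 lower, Gator2, which releases the Rag GTPases from inhibition, 3 of 5 lower, and Gator1 with Kicstor, which inhibit them, 4 of 6 higher. In each of these groups but the substrates no gene had an unadjusted p under 0.05 in limma.

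Prkab2 (chromosome 3, 97658193 to 97673812), a beta subunit of the energy sensor AMPK, was the gene higher in LPD. It had 462, 465, 605, 517 and 354 in LPD and 382, 316, 317, 324 and 333 in NPD. In 4 LPD lines the value was above all NPD lines, and LPD line 40 lay below NPD line 8 only. The log2 fold change was 0.50 (standard error 0.14, unadjusted p = 0.0032, limma adjusted p = 0.596, exact permutation p = 0.0159).

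Mitf (chromosome 6, 97807052 to 98021349), a lysosome and melanocyte transcription factor that mTORC1 keeps out of the nucleus, was lower, with 97.1, 85.8, 67.3, 66.9 and 50.99 in LPD and 87.0, 128, 126, 109 and 75.5 in NPD. The 3 lowest lines were LPD and the 3 highest NPD. The diets differed by -0.51 on the log2 scale (standard error 0.23, unadjusted p = 0.0432, limma adjusted p = 0.982), and it kept an unadjusted p under 0.05 in 4 of the 10 fits that left out 1 line, being -0.39 without LPD line 40. Prr5l, a partner of mTORC2, had the largest log2 fold change of the 67, 0.82 (95% interval -0.44 to 2.09), with a value of 136 in LPD line 6 against 6.87 to 38.9 in the other 9 lines. Without LPD line 6 it was 0.33 (95% interval -0.71 to 1.37), and without NPD line 21, the line with the lowest value, 0.50.

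**Figure D4:**
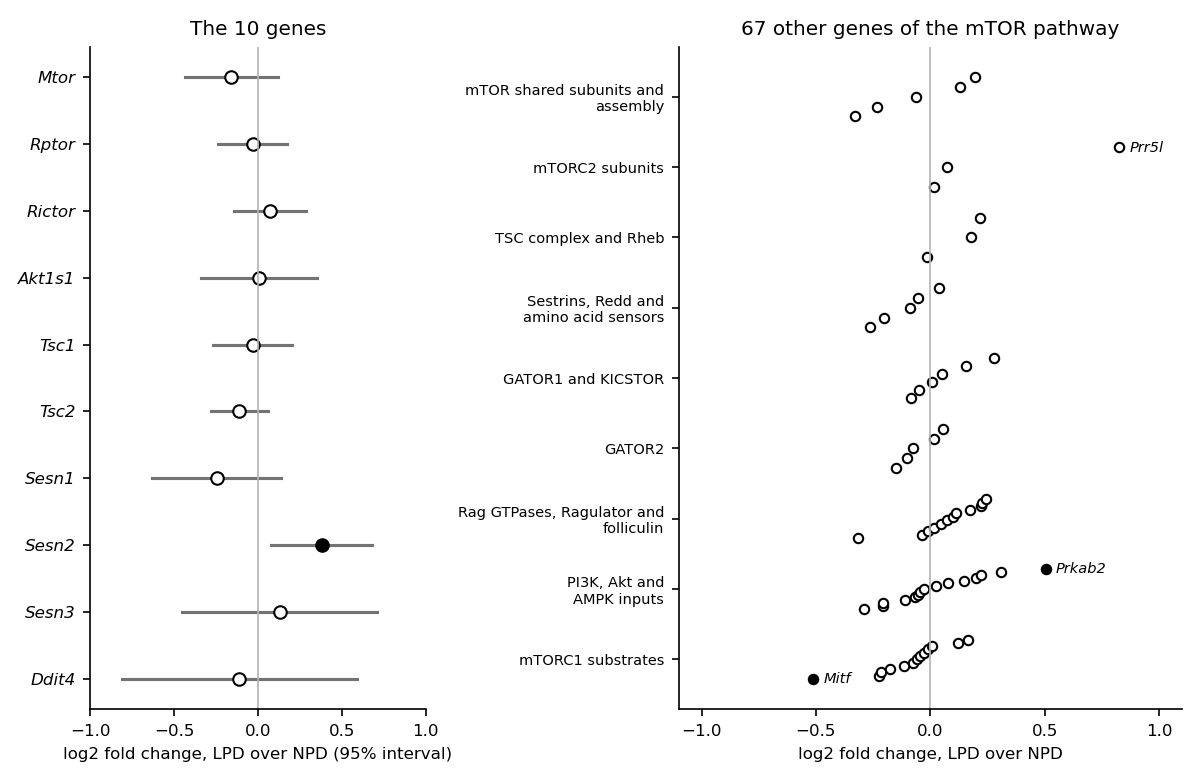
Left, log2 fold change (LPD over NPD) of the 10 genes with 95% intervals from limma, and right, log2 fold change of 67 other mTOR pathway genes by group, with filled points for an unadjusted p under 0.05. In the left panel the interval of Sesn2 alone, from 0.08 to 0.68, does not reach 0, and in the right panel Prkab2 and Mitf are filled.

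Other sensors and inhibitors that act beside the 10 genes had no unadjusted p under 0.05 in limma. Ddit4l, the paralog of Ddit4, had 193 in LPD and 238 in NPD on average, with a log2 fold change of -0.26 (unadjusted p = 0.261 in limma). For the arginine sensors Castor1 and Castor2 the log2 fold changes were -0.20 and 0.04, for the S-adenosylmethionine sensor gene Bmt2 -0.09 and for the lysosomal arginine sensor Slc38a9 -0.05. Rheb, the direct activator, had a mean of 1892 in LPD and 1668 in NPD, with a log2 fold change of 0.18 and an unadjusted p of 0.0720 in limma. Deptor, an inhibitory subunit of both complexes, had -0.23, and Mlst8, a shared subunit, 0.20.

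Among 10336 genes with a mean of at least 100, those most like Sesn2 over the 10 lines were Topors (r = 0.98), Arid5b (0.97), Zfp948 (0.95), Zfp518a (0.95) and Ccn1 (0.94). For Ddit4 they were Pla2g15 (0.95), Ankra2 (0.94), Dhcr7 (0.93), Sdhaf4 (0.93) and Kxd1 (0.93). Sesn3 was most like Itpr1 (0.95), Eea1 (0.95), Nectin3 (0.94), Mmgt1 (0.94) and Ptk2b (0.94). Sesn1 had Dna2 (0.93), Dnd1 (0.92), Oard1 (0.90), Rbbp9 (0.88) and Fancg (0.88) as its nearest genes. No gene was shared between these 4 sets of 5, and with 10 lines and this many genes such values are a description only.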

How the data were processed

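RNA was sequenced from 10 ESC lines, 5 per diet, and every value column belonged to 1 of them. The authors trimmed adaptors with cutadapt and filtered reads on base quality, quantified GRCm38 transcripts with Salmon and tested these with sleuth (0.30.0), per their methods and processing notes. The values they deposited are a signal for each gene, namely estimated reads that the table's name describes as scaled with DESeq2, and how transcripts were summed to genes is not given in the sources used here. Among genes with 1 transcript, 90.6% to 99.7% of low values were whole multiples of 1 read (tolerance 0.15), which gave the depth of each line. Over all genes only 66.6% to 72.7% were, so counts were not recovered.

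Genes were matched to GENCODE M21 on GRCm38 (19918 of 20206), and log2(value + 1) was fitted for 14354 genes (mean value 10 or more) with limma 3.58.1 (R 4.3.3, eBayes with trend, no covariate), with Benjamini-Hochberg adjustment over all genes and thresholds of 0.1 (adjusted) and 0.05 (unadjusted). Single genes were also tested by two-sided exact permutation, and correlations by 100000 permutations (Python 3.11.15, scipy 1.17.1). Depth limits the precision of each value, and levels per kb use the longest coding transcript. Protein sequences were not analysed here.

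Members and gene lists were chosen with earlier results of these data known. The genes named were the 10 genes, other pathway genes with an unadjusted p under 0.05 or among the 3 largest absolute log2 fold changes, 5 factors known to drive them, and the 5 genes most correlated with each sestrin and Ddit4. The genes set beside them in the account of the sensors, activators and subunits, and the target genes given by name, were picked from those lists after their values had been seen. Alternatives were other pseudocounts, filters, scalings, eBayes settings, line weights and covariates, leaving out single lines or the lines named in the text, and a rank test. Leaving out LPD lines 4, 6 and 40 together was added after seeing the data.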

Additional observations from a re-analysis of the deposited data

Results flagged for a closer look

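In a group of 5 lines, a line was singled out when its distance to the nearest other line exceeded 0.71 of the range of the group. Chance alone does so in about 5% of groups, and 3 of the 36 groups examined were singled out. Sesn1 was 338 in NPD line 15, against 499 to 564 in the other NPD lines. Prkab2 was 382 in NPD line 8, against 316 to 333 in the other NPD lines. Prr5l was 136 in LPD line 6, against 17.6 to 38.9 in the other LPD lines. NPD line 15 was also the line with the least Ddx3y and the most fibroblast feeder marker RNA, and LPD line 6 was the LPD line with the most feeder marker RNA, and the part of either in these values was not tested.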

How the results depend on the processing

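Of the 24 alternatives, 22 kept the unadjusted p of Sesn2 under 0.05. The exceptions were leaving out LPD line 4 and NPD line 15 together, which gave a log2 fold change of 0.28 and left 0 of the 10 genes under 0.05, and the exact Mann-Whitney test (p = 0.151). The cause was not tested. Leaving out single lines gave 0 to 40 genes of the table with an adjusted p under 0.1 (limma), 0 to 1 of the 10 genes, and 1 to 2 of the 10 and 1 to 6 of the 67 pathway genes with an unadjusted p under 0.05. The 40 genes, with Sesn2 among them, came without LPD line 40, and 5 of the 67 pathway genes then had an unadjusted p under 0.05. Sesn1 was the added gene without NPD line 15. Array weights gave 1 gene of the table and leaving out LPD lines 4, 6 and 40 gave 6, while a mean of at least 100, which drops Mitf, left 1 of the pathway genes. Rptor, Akt1s1, Tsc1, Sesn3 and Ddit4 changed sign in at least 1 alternative. Without single lines the ranges were -0.083 to 0.019 for Rptor, -0.095 to 0.16 for Akt1s1, -0.088 to 0.049 for Tsc1, -0.017 to 0.34 for Sesn3 and -0.34 to 0.079 for Ddit4. Akt1s1 was -0.029 with lines rescaled to the same total, -0.0081 with quantile normalization, -0.019 with array weights and -0.019 without LPD line 4 and NPD line 15, and Tsc1 was 0.026 with array weights. Without LPD lines 4, 6 and 40, Rptor was 0.00043 and Tsc1 0.0082. Mtor, Rictor, Tsc2, Sesn1 and Sesn2 kept their direction under all 24, but without single lines the size moved between -0.23 (LPD line 20) and -0.096 (NPD line 21) for Mtor, 0.015 (LPD line 4) and 0.14 (LPD line 40) for Rictor, -0.13 (LPD line 40) and -0.061 (LPD line 1) for Tsc2, -0.37 (NPD line 15) and -0.12 (LPD line 6) for Sesn1, and 0.31 (LPD line 4) and 0.51 (LPD line 40) for Sesn2. The lower depth of LPD lines 4, 6 and 40 limits the precision of the LPD values. No paired analysis was possible because the line numbers of the 2 diets are not shared.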

Other observations

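Markers of other embryonic cell types varied between lines. All 7 primitive endoderm markers had a positive log2 fold change, against 50.5% of all genes tested. Their median was 0.34, and none had an unadjusted p under 0.05 in limma. Their summed value ranged from 645 to 4312 in the LPD lines and from 448 to 4941 in the NPD lines. The mean log2 value of these markers was 5.03 in NPD line 15, against 6.94 to 8.78 in the other NPD lines and 6.39 to 8.85 in the LPD lines. Whether the shared direction holds without NPD line 15 was not tested. Of the 6 trophectoderm markers tested, 5 were higher in LPD, again with none under 0.05. LPD line 6 had the highest sum, 10338, against 3071 to 6224 in the other 9 lines. In that line Krt8 had 4577 and Krt18 3053. Elf5, which was below the filter, was at 0.73 to 6.18 over the lines. The summed values of both marker groups overlapped between diets.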
